A study of Mus musculus with 4 samples.

Results

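The Bcl2 family genes are the genes of the proteins that set whether the outer membrane of the mitochondrion stays closed or is opened during apoptosis. A set of 10 was followed here, chosen by name: the survival members Bcl2, Bcl2l1, Bcl2l2 and Mcl1, and the death members Bak1, Bok, Bid, Bad, Bcl2l11 and Bmf. All 10 were found among the 21090 genes of the table, and all 10 passed the filter for testing, an average of 1 RPKM or more. RPKM is the number of reads scaled to gene length and to the size of the library, so levels can be set side by side between genes.

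RNA-seq had been performed on 4 mouse mammary tumor cell lines, with 1 library per line. The study describes its knockout lines as made from a line of a primary mammary tumor with lung metastasis, from a mouse with activated Pik3ca and mutant Trp53 alleles switched on by Cre recombinase under the MMTV promoter, which acts mainly in mammary epithelium. Controls were the parental line and a line labelled as vector control (n = 2), and knockouts were a line edited in exon 3 and a line edited in exon 2 of S100a4 (n = 2), each made with a lentivirus carrying Cas9, 1 guide RNA and puromycin resistance. By title, 3 libraries are of cell 307 while the exon 2 line is of cell 308, whereas the study describes a single starting line, so the guide and this number cannot be told apart in that library. Whether an edited line is a single clone is not given in the sources used here. Each group holds 2 different lines and no repeat of a line, so a p-value measures the spread between lines.

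Proteins of the family share short stretches of homology, and the BH3 region is the one found in every class. Survival members bind the BH3 helix of death members in a groove and so hold them inactive. Bak1 and Bok, like Bax, form pores in the membrane, through which cytochrome c leaves for the cytosol. The BH3-only members Bid, Bad, Bcl2l11 (Bim) and Bmf sense particular stresses and either occupy the survival members or activate the pore formers. In epithelial cells of the mammary gland, Bcl2l1 and Mcl1 are known as survival factors, and Bcl2l11 and Bmf are known for the death of cells that have lost their attachment to the matrix.

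A stretch of the BH3 region is shown for each of the 10, since this region is what survival and death members have in common. The longest coding sequence of each gene in GENCODE M21 (GRCm38) was searched on the coding strand for a codon for leucine or methionine, 3 free codons, a codon for glycine, alanine or serine, an aspartate codon, and then a codon for aspartate, glutamate, glycine or glutamine. Each member held exactly 1 match, against at least 1 match in 11.6% of the 22500 coding sequences searched. The pattern had been written with these genes in mind, so its presence in them is no finding. The sequences below run 5′ to 3′ on the coding strand and cover the match with 1 codon on either side, and capitals mark the first codon of the match and the aspartate codon. The first 4 are from survival members, the next 2 from pore formers and the last 4 from BH3-only members.
Bcl2 (exon 1, minus strand, chr1:106712578-106712604): accCTCcgccgggctgggGATgacttc
Bcl2l1 (exon 2, minus strand, chr2:152829700-152829726): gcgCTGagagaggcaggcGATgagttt
Bcl2l2 (exon 3, plus strand, chr14:54884514-54884540): gccATGcgggctgctggaGACgagttt
Mcl1 (exon 1, plus strand, chr3:95659433-95659459): accCTGcggcgcgtgggcGACggcgtg
Bak1 (exon 4, minus strand, chr17:27022534-27022560): cagCTTgctctcatcggaGATgatatt
Bok (exons 2 and 3, plus strand, chr1:93686654-93689167 with the intron between them): gtgCTGctgcgcttgggaGATgagctg
Bid (exon 4, minus strand, chr6:120897292-120897318): catCTCgcccaaataggcGATgagatg
Bad (exon 3, plus strand, chr19:6950789-6950815): gagCTCcgaaggatgagcGATgagttt
Bcl2l11 (exon 3, plus strand, chr2:128147147-128147173): gagCTGcggcggatcggaGACgagttc
Bmf (exon 4, minus strand, chr2:118545103-118545129): aagCTTcagtgtattgcaGACcagttc
The first codon encodes leucine in every member but Bcl2l2, where ATG encodes methionine. The codon before the aspartate encodes glycine in all of them but Bad, with serine, and Bmf, with alanine. The deposited values are per gene and hold no reads of these stretches.

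Depth and sample identity were checked first. The total of reads behind each RPKM column was between 22472024 and 31235456, and the members rested on between 18 reads (Bcl2 in the exon 2 knockout) and 5396 reads (Bcl2l1 in the exon 3 knockout). The edited gene S100a4 measured 3576 (parental), 4741 (vector), 1136 (exon 3) and 1105 RPKM (exon 2), so both knockouts were below both controls while transcripts of the gene remained. Of 9 epithelial markers, 3 (Krt8, Krt18 and Esr1) had mean RPKM of at least 1 and the other 6, Epcam and Cdh1 among them, were below 1 in every library, whereas all 7 mesenchymal markers passed. The epithelial sum was 134 (parental), 37.7 (vector), 109.6 (exon 3) and 76.5 RPKM (exon 2), and the mesenchymal sum was 8287, 7235, 3341 and 3466 in that order. The edited gene S100a4 is among the 7 mesenchymal markers, so its own difference is part of that sum. Vim and Col3a1 were also lower in both knockouts than in both controls, whereas Col1a1, Col1a2, Fn1 and Pdgfrb were lowest in the vector control. The controls stood far apart in single markers, with Col1a1 at 670.3 (parental) and 6.93 RPKM (vector), and Krt18 at 60.2 and 6.10. Markers of endothelium were below 1 throughout (4 of 4), and so were 8 of 9 leukocyte markers in the table, with Cd3e, Cd3d and Cd3g at 0. The leukocyte sum was 4.37 and 5.58 RPKM in the controls and 12.3 and 13.8 in the knockouts, most of it from Cd68, a lysosomal protein of macrophages and other cells, with RPKM of 4.92, 3.36, 11.5 and 13.2 in the parental line, vector control, exon 3 and exon 2 knockouts. The part of these marker differences in the results below was not tested.

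**Figure D1:**
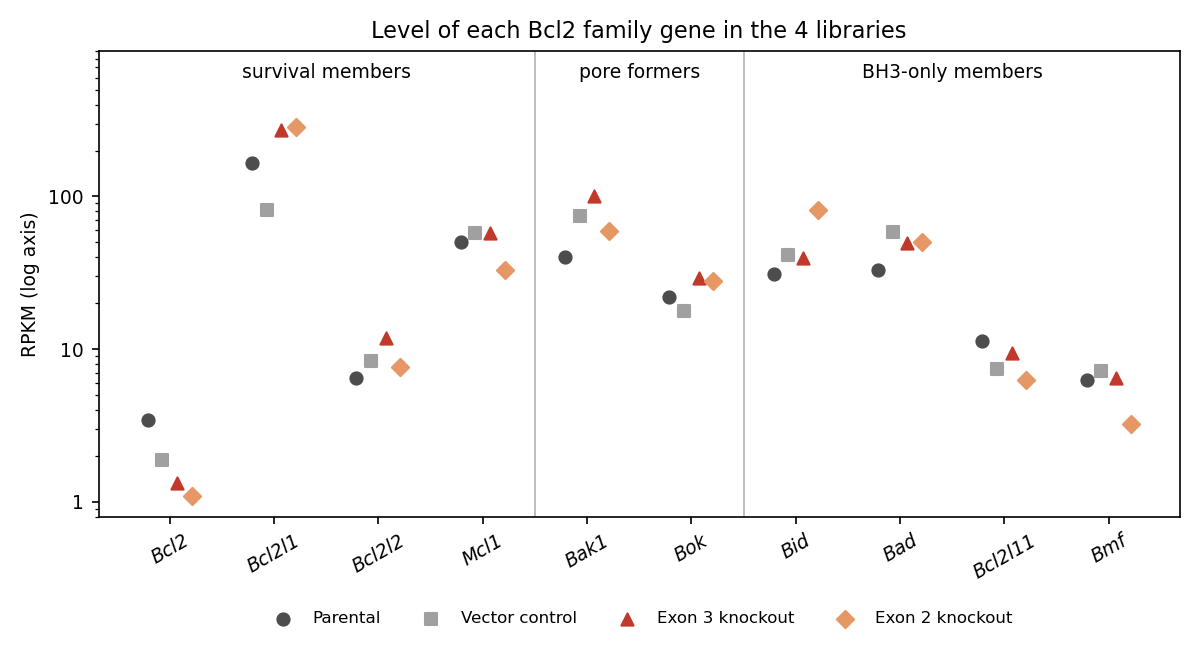
RPKM (log axis) of each Bcl2 family gene in the 4 libraries, 1 point per library, with survival members, pore formers and BH3-only members set apart. Bcl2l1 was the highest member in every library and Bcl2 the lowest, and the knockout points lay above both control points for Bcl2l1 and Bok and below both for Bcl2.

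The members were first ordered by level, to see which of them the tumor cells express most. Bcl2l1 had the highest RPKM in each of the 4 libraries and Bcl2 the lowest, and Bok was in the sixth place and Bmf in the ninth throughout. Averaged over the 4 libraries, Bcl2l1 stood at 200.7 RPKM, above 96.2% of tested genes, and Bcl2 at 1.93, above 6.25%. Bak1 followed with a mean of 68.6. Mcl1 (49.3), Bid (48.6) and Bad (47.7) came next and did not differ beyond the spread between libraries. Bok stood at 24.2. Bcl2l11 (8.63) and Bcl2l2 (8.58) had nearly the same level, with Bmf at 5.80. The rank of Mcl1 differed between libraries, from the second place in the parental line to the fifth in the exon 2 knockout.

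The design asks which genes differ once S100a4 is lost, and the knockout lines were compared with the control lines. Of the 10 members, 6 were higher and 4 lower on average in the knockouts, and the difference was largest for Bcl2l1, at 1.25 (log2 change of RPKM + 1). In limma, 0 of 10 members had an adjusted p under 0.05, where 0.0184% of the 10871 tested genes did, and voom on recovered reads also gave 0. With a robust prior limma called 1 member, Bcl2l1, where 2.62% of tested genes were called. An unadjusted p under 0.05 was reached by 1 of 10 members (Bcl2l1, higher), against 19.1% of all tested genes in either direction and 5.32% higher. The groups did not overlap for 3 members, against 53.2% of tested genes. The knockouts were both higher for Bcl2l1 and Bok, 2 of 10 where 21.9% of tested genes were, and both lower for Bcl2, 1 of 10 where 31.2% were. The share is near the background for the higher direction and under it for the lower. With 10 members, neither is read as a result about them. The median log2 change was 0.26 over the members and -0.08 over all tested genes. Permuting 2 libraries against 2 exactly cannot give a two-sided p under 0.3333, the value of these 3 members.

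**Figure D2:**
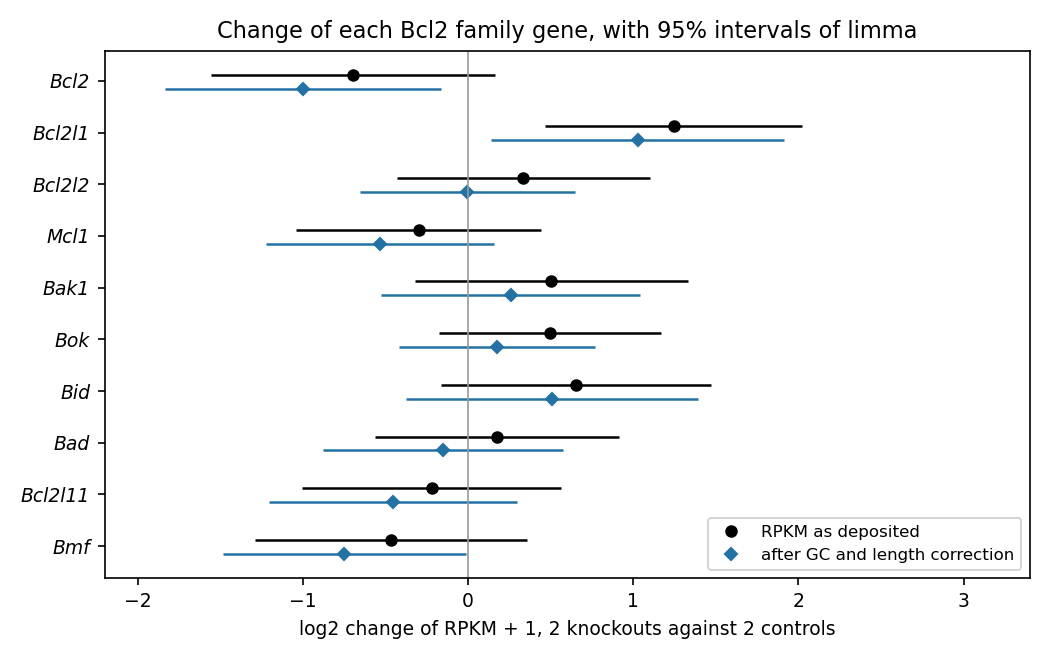
Log2 change of RPKM + 1 in the 2 knockouts against the 2 controls for each member (points), with the 95% interval of limma (lines), for RPKM as deposited and after correction for coding GC content and length. The interval of Bcl2l1 lay above 0 in both, that of Bcl2 and Bmf lay below 0 only after the correction, and the others reached across 0.

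Among the survival members, Bcl2l1, which encodes Bcl-xL, was the member with the largest difference. This gene (chromosome 2 from 152780668 to 152831728, minus strand) is among those the study had picked from these same libraries, so its direction is not independent evidence. Its level was 165 (parental), 82.1 (vector), 272 (exon 3) and 284 RPKM (exon 2). The knockouts were close to each other and above both controls, and the controls stood far apart. Controls averaged 124 ± 58.7 RPKM (SD, n = 2) and knockouts 278 ± 8.49 (SD, n = 2), which is 2.25 times higher. The log2 change was 1.25 (SE 0.355, 95% interval 0.47 to 2.02, adjusted p = 0.137 in limma). Between single libraries the exon 3 knockout had 1.64 times the level of the parental line (95% exact interval of the reads 1.58 to 1.71) and the exon 2 knockout 1.72 times (1.65 to 1.79). Against the vector control the ratios were 3.31 (3.13 to 3.49) and 3.45 (3.27 to 3.65). The parental line was itself 2.01 times above the vector control, so a difference of that size was present within the control group. Without the parental line the log2 change was 1.74, and without the vector control it was 0.75. Each of these fits has 1 control library, with the spread taken from the knockouts alone. The lone control is assumed to vary like them, so no p is given. Intervals of reads cover counting error only, since reads amplified by PCR without molecular identifiers are not independent molecules. In RNA from whole cultures, more cells with a transcript and more transcript per cell cannot be told apart.

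Bcl2, the founding survival member, had the opposite direction at a level near the limit of the filter. Its level was 3.44 (parental), 1.88 (vector), 1.33 (exon 3) and 1.09 RPKM (exon 2), from 79, 35, 23 and 18 reads. Both knockouts were below both controls, and the vector control lay nearer to the knockouts than to the parental line. Its log2 change was -0.69 (limma SE 0.392, adjusted p = 0.352), and it was -0.38 without the parental line. The ratio to the parental line was 0.387 (95% exact interval 0.232 to 0.623) for exon 3 and 0.317 (0.179 to 0.533) for exon 2, whereas the ratios to the vector control, 0.711 (0.401 to 1.24) and 0.581 (0.310 to 1.05), were within counting error of 1. At this depth a difference of the knockouts from the vector control was not detectable.

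Mcl1 encodes a survival protein of rapid turnover. Its level was 50.1 (parental), 57.3 (vector), 57.2 (exon 3) and 32.8 RPKM (exon 2). The exon 2 knockout was low and the other libraries were close together, so the groups overlapped. The exon 3 knockout was within counting error of the vector control (95% exact interval of the ratio 0.928 to 1.08), and the exon 2 knockout was at 0.572 times (0.523 to 0.625). The log2 change over both was -0.30 (limma SE 0.337, adjusted p = 0.643), and without the exon 2 knockout it was 0.09.

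Bcl2l2, which encodes Bcl-w, measured 6.44 (parental), 8.39 (vector), 11.9 (exon 3) and 7.65 RPKM (exon 2). Here the exon 3 knockout was the high library, and the exon 2 knockout lay between the controls. On average the log2 change was 0.34 (limma SE 0.350, adjusted p = 0.614). It was 0.05 without the exon 3 knockout and 0.62 without the exon 2 knockout. An exon of Gm20521, annotated on the same strand, overlaps its coding exons, so its reads may be shared with that gene.

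The pore formers were examined next. Bak1 measured 40.0 (parental), 74.0 (vector), 101 (exon 3) and 59.7 RPKM (exon 2). The exon 3 knockout was above both controls and the exon 2 knockout between them. For the group means the log2 change was 0.50 (limma SE 0.376, adjusted p = 0.477), while the vector control was 1.85 times above the parental line. It was 0.07 without the parental line, 0.13 without the exon 3 knockout, 0.94 without the vector control and 0.88 without the exon 2 knockout. Exons of Ggnbp1 on the opposite strand overlap its coding exons, and whether counting used the strand is not given in the sources used here.

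Bok, whose protein can form pores without the other members, measured 22.1 (parental), 17.9 (vector), 29.1 (exon 3) and 27.9 RPKM (exon 2). Both knockouts were above both controls, by 1.26 to 1.62 times in the 4 pairs, and the 95% exact interval of the reads lay above 1 in each pair. Between the controls the interval left out 1 too, at 0.697 to 0.942 for the vector control over the parental line. Fitted over all libraries, the log2 change was 0.50 (limma SE 0.306, adjusted p = 0.388). It was 0.18 (SE 0.255) after correction for GC content and length.

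Among the BH3-only members, Bid, which links death receptors to the mitochondrion after cleavage by caspase-8, differed most between the guides. Its level was 31.1 (parental), 41.6 (vector), 39.8 (exon 3) and 81.9 RPKM (exon 2). Only the exon 2 knockout was outside the range of the controls, at 2.06 times the exon 3 knockout (95% exact interval 1.86 to 2.29). The log2 change over both knockouts was 0.65 (limma SE 0.373, adjusted p = 0.355), and it was 0.14 without the exon 2 knockout.

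Bad, a member that growth factor signalling through Akt holds inactive by phosphorylation, measured 33.0 (parental), 58.5 (vector), 49.2 (exon 3) and 50.3 RPKM (exon 2). The knockouts agreed within counting error (ratio 1.02, 95% exact interval 0.918 to 1.14) and lay between the controls. The log2 change was 0.18 (limma SE 0.337, adjusted p = 0.802). Exons of Gpr137 on the opposite strand overlap its coding exons.

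Bcl2l11, whose protein Bim binds all survival members, measured 11.3 (parental), 7.47 (vector), 9.49 (exon 3) and 6.31 RPKM (exon 2). The groups overlapped, with a log2 change of -0.22 (limma SE 0.357, adjusted p = 0.759).

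Bmf, a BH3-only member bound to the actin motor complex in attached cells, measured 6.28 (parental), 7.25 (vector), 6.45 (exon 3) and 3.23 RPKM (exon 2). As for Mcl1, the exon 2 knockout was the low library, at 0.501 times the exon 3 knockout (95% exact interval 0.362 to 0.687), and the other libraries were close together. Its log2 change was -0.46 (limma SE 0.376, adjusted p = 0.512), and it was -0.06 without the exon 2 knockout and -0.87 without the exon 3 knockout.

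**Figure D3:**
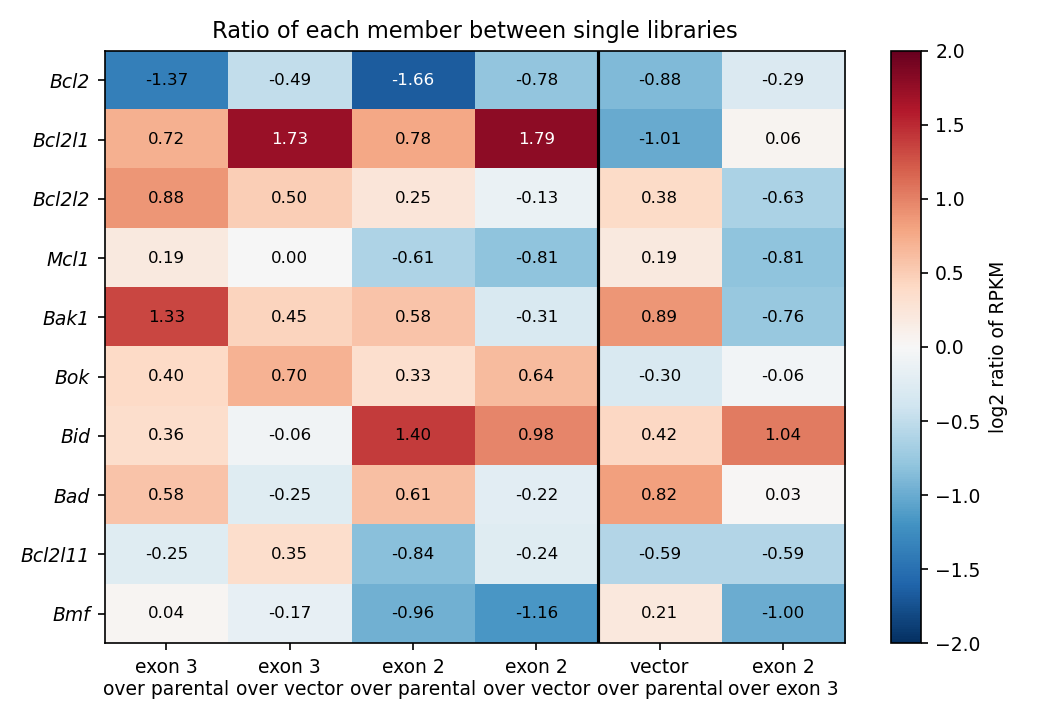
Log2 ratio of RPKM between single libraries for each member, with the 4 knockout and control pairs left of the black line and the 2 pairs within a group right of it. Ratios of 2-fold or more (beyond 1 or -1) appeared within the groups for Bcl2l1 (vector control over parental line, -1.01) and Bid (exon 2 over exon 3 knockout, 1.04).

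Single libraries were then compared in pairs, to set the differences between the groups beside those within them. Within the controls 1 member, Bcl2l1, was at least 2-fold apart, where 11.9% of tested genes were. Within the knockouts 1 member, Bid, was at least 2-fold apart, where 9.88% of tested genes were. The pairs of a knockout and a control each had 1 or 2 members at least 2-fold apart. These were Bcl2l1 and Bmf for exon 2 against the vector control (19.3% of tested genes), Bcl2l1 for exon 3 against the vector control (26.1%), Bak1 and Bcl2 for exon 3 against the parental line (23.4%), and Bid and Bcl2 for exon 2 against the parental line (15.2%). No member was at least 2-fold apart in all 4 of these pairs (0 of 10), where 3.73% of tested genes were. The pairs share libraries and are not independent.

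Base composition moved with the groups in these libraries, so it was set beside the members. Across tested genes with a coding sequence, the log2 change correlated with coding GC content with a Pearson's r of 0.457. This is across genes, which are no independent replicates. The members have short coding sequences, from 582 to 996 bases, and all have a GC content above the median of tested genes, from 53.4% in Bid to 64.6% in Mcl1. After correction for GC content and length the log2 change of Bcl2l1 was 1.03 (limma SE 0.380, adjusted p = 0.343), that of Bcl2 had a 95% interval of -1.84 to -0.16 (adjusted p = 0.334) and that of Bmf was -0.75 (SE 0.315, adjusted p = 0.379). Bcl2l2 was then at -0.0038 and Bad at -0.15, on the other side of 0, Bak1 was at 0.26, Mcl1 at -0.53 and Bcl2l11 at -0.45, and the median of the members was -0.08 against 0.05 for all tested genes. An unadjusted p under 0.05 was reached by 3 members after the correction, namely Bcl2l1, Bcl2 and Bmf, against 13.0% of the 10774 genes so tested. The adjusted p in limma was over 0.05 for all 10.

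**Figure D4:**
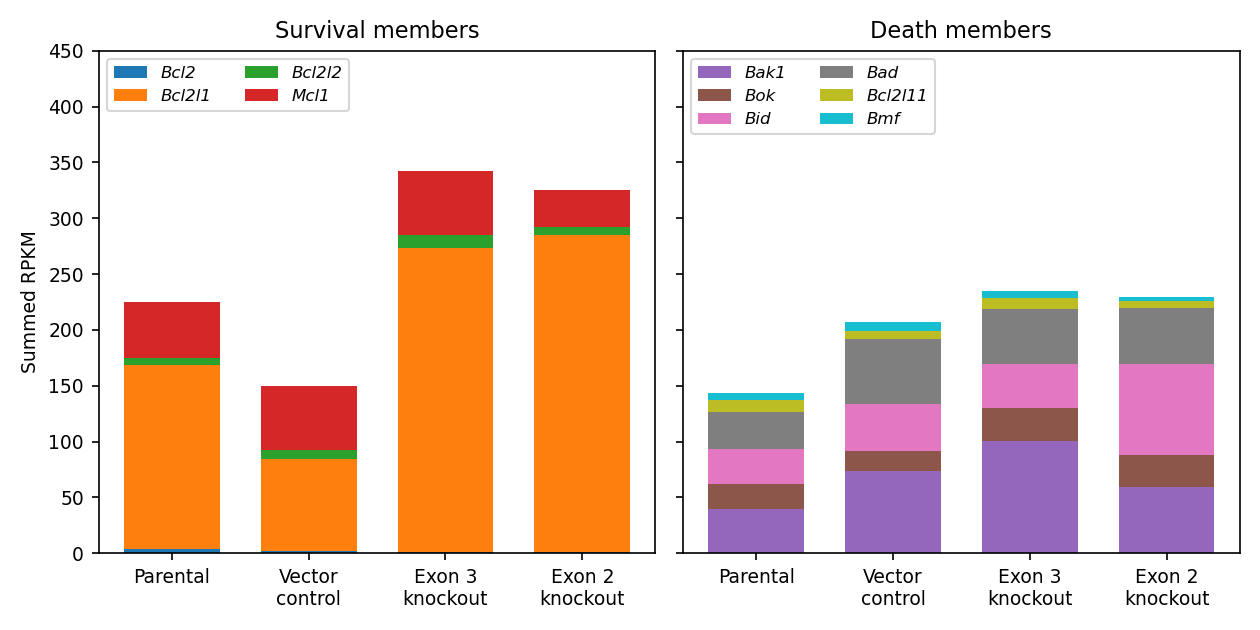
Summed RPKM of the survival members (left) and the death members (right) in each library, stacked by gene from an axis that starts at 0. Bcl2l1 made up most of the survival sum in every library, and both sums were higher in the knockouts than in the controls.

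Survival and death members act against each other, so their summed levels were compared within each library, where the ratio does not depend on the library total. The survival sum was 225 RPKM (parental), 149.7 (vector), 342 (exon 3) and 325 (exon 2). The death sum was 144, 207, 235 and 229 in the same order. For both roles the knockout sums lay above the control sums. The ratio of survival over death was 1.57 (parental), 0.724 (vector), 1.46 (exon 3) and 1.42 (exon 2). The knockouts therefore lay within the range of the controls, below the parental line and above the vector control. On the log2 scale the knockouts were 0.43 above the controls on average, less than the SD of 0.787 between the controls (n = 2). No p is given for a sum over members chosen by name.

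The make-up of the survival sum was then described. Bcl2l1 took 73.4% of it (parental), 54.9% (vector), 79.4% (exon 3) and 87.2% (exon 2). Mcl1 took 22.3%, 38.3%, 16.7% and 10.1% in the same order, and each knockout was outside the range of the controls for both genes. Both shares are parts of the same sum, so these are not separate differences. The RPKM of Mcl1 itself overlapped between the groups. The ratio of Bcl2l1 to Mcl1 was 3.30 (parental), 1.43 (vector), 4.75 (exon 3) and 8.66 (exon 2). The ratio of Bcl2l1 to Bak1, a pore former that Bcl-xL binds, was 4.13, 1.11, 2.69 and 4.75, which overlapped between the groups. Among the death members, Bak1 took the largest share in the exon 3 knockout (42.9%) and Bid in the exon 2 knockout (35.7%).

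**Figure D5:**
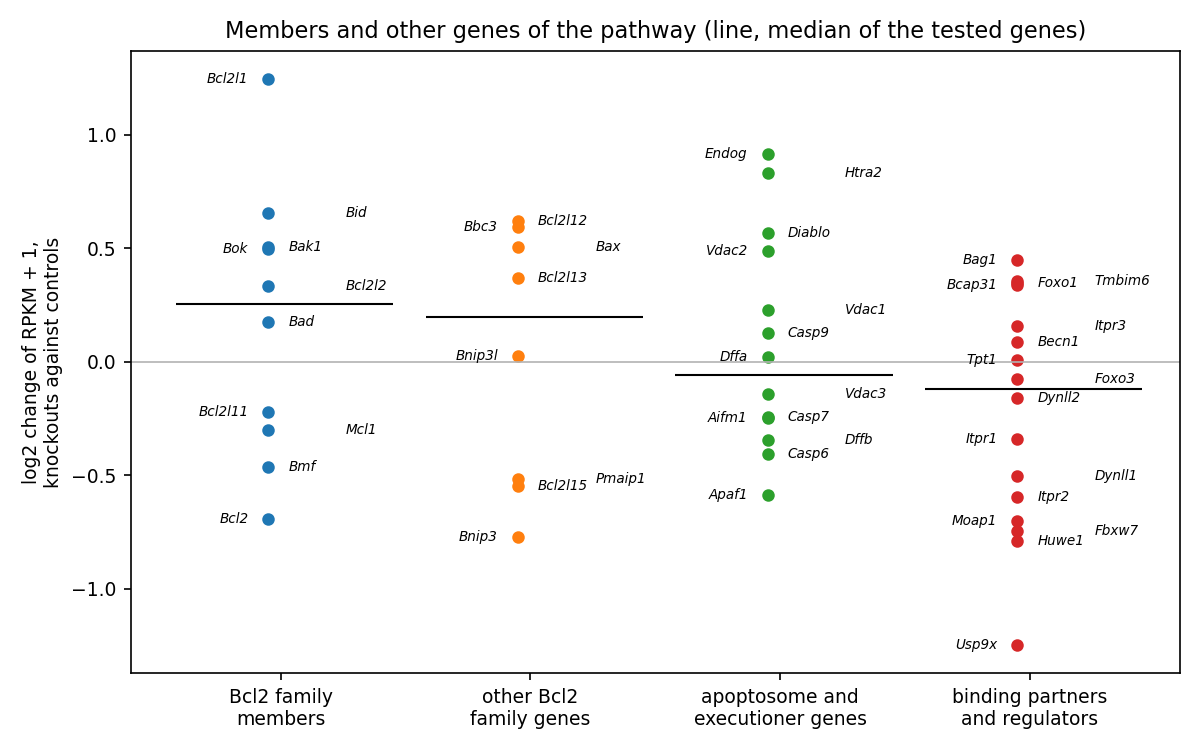
Log2 change of RPKM + 1 in the knockouts against the controls for the members and for the tested genes of 3 other lists, 1 point per gene, with the median over all tested genes of each list as a line. A gene of the apoptosome and executioner list that is not reported is not drawn. Bcl2l1 was the highest point, and the medians lay between -0.12 and 0.26.

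Other genes of the family were then described from a list of 16, of which 8 had mean RPKM of at least 1. Bcl2a1a, Bcl2a1b, Bcl2a1c and Bcl2a1d, near-identical survival genes known from leukocytes, were listed at 0 in all libraries, as were Bcl2l10 and Hrk, and Bik and Bcl2l14 were below 1. In limma 0 of 8 had an adjusted p under 0.05, and 0 had an unadjusted p under 0.05. The groups did not overlap for 6 of 8 (53.2% of all tested genes), with 4 higher (21.9%) and 2 lower (31.2%) in the knockouts, and the median log2 change was 0.20. Bax, the other main pore former, measured 124 (parental), 207 (vector), 247 (exon 3) and 211 RPKM (exon 2), with a log2 change of 0.51 (SE 0.328) and of 0.18 after correction for GC content and length. Both knockouts were above both controls, the exon 2 knockout by 1.02 times over the vector control (95% exact interval 0.967 to 1.07). On average the log2 change was 0.59 for Bbc3 (Puma, a BH3-only target of p53), 0.62 for Bcl2l12 and 0.37 for Bcl2l13, a mitochondrial member. It was -0.52 for Pmaip1 (Noxa, which binds Mcl1), from 7, 17, 5 and 4 reads in the parental, vector, exon 3 and exon 2 lines, of which the vector control alone stood high. It was -0.77 for Bnip3, a gene known from hypoxia and mitophagy.

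Downstream of the mitochondrion, 14 of 15 apoptosome and executioner genes were tested. Cycs, the gene of cytochrome c, was below 1 RPKM in every library, and it has near-identical copies in the genome between which reads could be split. In limma 0 of 14 had an adjusted p under 0.05, while 2 genes that were higher in the knockouts, Endog and Htra2, and 1 lower gene had an unadjusted p under 0.05, against 19.1% of all tested genes. An adjusted p under 0.05 was reached by 1 of 14 with a robust prior, against 2.62% of tested genes. The groups did not overlap for 8 of 14, close to the 53.2% of all tested genes, with 4 in each direction (21.9% higher and 31.2% lower), and the median log2 change was -0.06. Apaf1, the scaffold of the apoptosome, was at -0.59, Casp6 at -0.41 and Aifm1 at -0.25, and the correction for GC content and length turned Apaf1 and Aifm1, both to 0.11. Endog, a mitochondrial nuclease, was at 0.91 (SE 0.304) and Htra2, a mitochondrial protease, at 0.83 (SE 0.296). Diablo, an antagonist of inhibitors of apoptosis, was at 0.57 and Vdac2, a channel that binds Bak1, at 0.49, neither with an unadjusted p under 0.05 before the correction. After it Diablo was at 0.74, Vdac2 at 0.85, Endog at 0.68 and Htra2 at 0.69. An unadjusted p under 0.05 in limma was then reached by 5 genes of the list, against 13.0% of the 10774 genes so tested. The adjusted p was under 0.05 for 0 of them.

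All 16 listed binding partners and regulators of Bcl2 family proteins were tested. In limma 0 of 16 had an adjusted p under 0.05, and 2, Usp9x and Huwe1, had an unadjusted p under 0.05, against 19.1% of all tested genes. With a robust prior 1 of 16, Usp9x, had an adjusted p under 0.05 (0.0452 in limma), against 2.62% of tested genes. Both act on Mcl1 protein, Huwe1 as a ubiquitin ligase and Usp9x as a deubiquitinase. Levels of Usp9x were 19.8 (parental), 20.2 (vector), 6.39 (exon 3) and 9.59 RPKM (exon 2), a log2 change of -1.25 (limma SE 0.330, adjusted p = 0.126). Those of Huwe1 were 35.3, 30.9, 17.2 and 20.3 RPKM in that order, or -0.79 as a log2 change (limma SE 0.306, adjusted p = 0.206). After correction for GC content and length these were -0.14 for Usp9x and 0.09 for Huwe1, so the difference was nearly lost for the first and turned for the second. Fbxw7, part of another ligase for Mcl1, was at -0.75 and Moap1, a Bax binder, at -0.70, which the correction took to -0.30 and -0.39. Bag1, a Bcl2 binder, was at 0.45, Tmbim6 at 0.36, Foxo1, a transcription factor that acts on Bcl2l11, at 0.35 and Bcap31 at 0.34. The groups did not overlap for 11 of 16 (53.2% of all tested genes), with 4 higher (21.9%) and 7 lower (31.2%) in the knockouts, and the median log2 change was -0.12.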

How the data were processed

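Values were RPKM per gene, 1 column per library, as deposited by the authors, on a linear scale. The submitters' processing notes name CASAVA 1.8, GSNAP and GRCm38, and the study's methods use GSNAP to check the edits. The gene model and the counting rule are not given in the sources used here. Columns were matched to samples by the label, with 0 unmatched. Groups came from the sample titles. Ratios of RPKM between libraries returned whole reads (tolerance 0.001 reads) for 100.0% of the 14196 genes above 0 in at least 2 libraries. The gene lengths so implied for the members were from 582 to 1004 bases, equal to the longest coding length for 4 of 10.

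Genes with mean RPKM of at least 1 were tested as log2(RPKM + 1) in limma (version 3.58.1, R 4.3.3) with an intensity trend, 2 knockouts against 2 controls, with Benjamini-Hochberg adjusted p-values over all 10871 genes and a threshold of 0.05. The fit was tested on simulated data. A log2 change on this scale understates the change of low genes. Ratios between single libraries were taken on RPKM with nothing added, with exact binomial intervals of the reads. For the correction, each library's deviation from the gene mean was regressed on splines (4 degrees of freedom each) of coding GC content and log2 coding length, over 10774 genes. Sequences, positions and coding lengths are from GENCODE M21 (GRCm38). Python 3.11.15, scipy 1.17.1 and statsmodels 0.14.6 were used otherwise.

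The members and lists were chosen with earlier results of these data known. Named genes were the 10 members, S100a4 and, from each other list, up to 4 genes in each direction with the largest log2 change among those whose groups did not overlap, besides genes at 0 or below the filter. Values of 1 gene named by this rule and of 1 marker are not reported here. Alternatives were another pseudocount, filter, scaling, prior or trend, voom on recovered reads, the correction and leaving out each library.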

Additional observations from a re-analysis of the deposited data

Results flagged for a closer look

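Of 48 members and listed genes, 3 were above both controls in one knockout and below both in the other, and none of the 10 members was among them. In all tested genes this share was 7.88%. With 1 library each, their difference was not tested. Bcl2l15, a gene of the family at low level, measured 2.11 (parental), 2.14 (vector), 2.39 (exon 3) and 0.345 RPKM (exon 2), from 34, 28, 29 and 4 reads. Its level in exon 3 stood 2.80 above that in exon 2 on the log2 scale. Casp9, the initiator caspase of the apoptosome, stood at 9.08, 8.57, 11.2 and 8.44 RPKM by that order of lines, a log2 difference of 0.41. It rested on 387, 297, 359 and 259 reads. The exon 2 knockout and the vector control were nearly level, so its place below both controls is by a narrow margin. Tpt1, a Bcl2l1 and Mcl1 binder with many processed copies in the genome, stood at 39.0, 45.1, 36.1 and 49.2 RPKM, a log2 difference of -0.45.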

How the results depend on the processing

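Over 13 alternatives, 120 of 129 recomputed member values kept their direction and their side of the threshold, and 6 of 10 members kept their direction throughout. Turned values were -0.0038 for Bcl2l2 and -0.15 for Bad after the GC and length correction and 0.042 for Bcl2l11 with quantile normalization. When a library was left out, Mcl1 ran from -0.69 to 0.094, Bad from -0.23 to 0.58 and Bcl2l11 from -0.49 to 0.048, with Mcl1 and Bcl2l11 turned without the exon 2 knockout, and Bad and Bcl2l11 turned without the parental line. The log2 change of Bcl2l1 ran from 0.75 to 1.74, both from fits where 1 control library is left. With all 4 libraries its adjusted p in limma ran from 0.0454 with a robust prior to 0.343 after the GC and length correction. The number of members with an adjusted p under 0.05 and higher in the knockouts was 1 with a robust prior, where 2.62% of tested genes were called in either direction. It was 0 in the other alternatives with all 4 libraries. The number whose groups did not overlap, 2 higher and 1 lower as reported, was 4 higher with median ratio scaling. It was 4 higher and 0 lower with quantile normalization, and 1 higher and 3 lower after the GC and length correction. With the filter at mean RPKM of 5, which removes Bcl2, it was 0 lower. The share of all tested genes was not taken under these settings, so the counts are not read as a result about the members. At 1.5-fold, 1 member (Bcl2l1) was higher in all 4 pairs, and the share of all tested genes was not taken at this fold. Counts of members with a library left out are not given. Fewer libraries overlap less often, and the share of all tested genes was not taken there either. The balance of survival and death members was -0.04 as a difference of mean log2 levels, -0.60 without Bcl2l1 and Bak1, the most abundant member of each role, and 0.39 with Bax added to the death members, an alternative chosen after seeing the data. It ran from -0.12 without the vector control to 0.99 without the parental line. The cause of these shifts was not tested. No paired analysis was possible because the labels give no replicate numbers. Among the members depth limits Bcl2 most, with 18 to 79 reads per library.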
